A study of Mus musculus with 6 samples.

Results

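Among 6 mouse skin libraries, 3 held transcripts of hair under construction at a high level and 3 held them at a low level. The libraries were ranked by the mean log2 CPM (CPM, a gene's count scaled to the total count of its library) of 4 keratin genes, Krt27, Krt71, Krt73 and Krt85. The 3 top libraries, here called high-hair, were replicates 2 and 3 of ATR WT and replicate 3 of ATR mD/mD, with means of 9.38, 9.47 and 9.54 log2 CPM. The other 3, called low-hair, were replicate 1 of ATR WT and replicates 1 and 2 of ATR mD/mD, with means of 3.85, -0.53 and 3.40. The nearest libraries across the border, ATR WT 2 inside and ATR WT 1 outside, lay 5.53 log2 units apart. High-hair is therefore 3 of 6 libraries, selected by measured expression, and it mixes the study's genotypes: it holds 2 ATR WT and 1 ATR mD/mD library, and low-hair holds 1 and 2. Ranking by 15 hair shaft keratins or by 48 Krtap genes gave the same 2 sides. The 15 include Krt85, and both sets are hair genes that are high in the same libraries, so this is no independent support for the sides.

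The study set 3 ATR WT libraries (Atr +/+) against 3 ATR mD/mD libraries, labelled ATR fl/fl, from which part of the Atr kinase domain is deleted. All 6 carry Braf CA/+ and Cre +, on a C57BL/6-129J background. Braf CA is an allele that Cre switches to an activated form of the MAPK pathway kinase, and the kinase ATR guards replicating DNA. By its label the tissue is skin, although the design text speaks of nevi, that is, benign melanocyte growths. The sources used here give no Cre driver, age, body site, hair cycle stage or pooling of animals. They do not say whether each library is a separate animal. The sex-linked transcripts given below show libraries of both sexes within each genotype, so each genotype holds at least 2 animals, and p-values between genotypes measure the spread between these samples.

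A hair follicle passes through growth (anagen), regression (catagen) and rest (telogen). During growth, matrix cells at the base of the follicle divide and differentiate into the hair shaft and its mould, the inner root sheath, while follicular melanocytes make pigment. The shaft is built of hair keratins held in a matrix of keratin-associated proteins, and the inner root sheath of its own keratins and trichohyalin. The dermal papilla, a cluster of mesenchymal cells under the matrix, exchanges hedgehog, Wnt, BMP and FGF signals with it.

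Because expression itself sorted the libraries, every gene of the high-hair against low-hair contrast counts as used by that choice, and no p-value or standard error is given for it. The contrast is described instead by each library's value. Values are CPM scaled by TMM (a scaling that corrects for unequal library makeup), and log2 CPM carries a prior count of 1. The gap of a gene is the distance in log2 CPM between the nearest libraries of the opposing sides. A gap above 0 means that the 3 libraries of one side all lie above the 3 of the other. Over all 14484 genes, 19.6% were higher in every high-hair library and 17.1% were lower in every one. Counts of a list without a minimum gap are to be set beside these shares. Throughout, high-hair values are given for ATR WT 2, then ATR WT 3, then ATR mD/mD 3, and low-hair values for ATR WT 1, then ATR mD/mD 1, then ATR mD/mD 2. Each library held between 34723600 and 46847751 counts in genes.

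The promoters of 3 ranking keratins and of 1 highly expressed Krtap gene are shown first, since these genes lie in a few compact clusters and are high together. The stretches run from 250 bases before to 50 bases after the annotated start (RefSeq, build GRCm38.p6, all on the minus strand, printed 5′ to 3′ along the gene). Capitals mark TATAAA, the core promoter motif known as the TATA box. The genes are 3 inner root sheath keratins and Krtap8-1, a keratin-associated protein, at chr11:99351069-99351368, chr15:101743048-101743347, chr15:101802311-101802610 and chr16:89487903-89488202.
Krt27: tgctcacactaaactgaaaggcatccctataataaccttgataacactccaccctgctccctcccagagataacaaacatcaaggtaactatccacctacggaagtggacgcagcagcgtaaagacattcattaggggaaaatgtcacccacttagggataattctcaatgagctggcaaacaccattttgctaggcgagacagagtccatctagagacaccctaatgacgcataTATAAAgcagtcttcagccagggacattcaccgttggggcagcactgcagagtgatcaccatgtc
Krt71: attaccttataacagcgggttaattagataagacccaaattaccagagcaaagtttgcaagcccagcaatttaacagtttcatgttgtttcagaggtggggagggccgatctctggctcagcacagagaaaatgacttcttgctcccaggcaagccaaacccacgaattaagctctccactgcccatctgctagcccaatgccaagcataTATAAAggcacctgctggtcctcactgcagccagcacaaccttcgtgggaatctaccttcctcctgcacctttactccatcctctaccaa
Krt73: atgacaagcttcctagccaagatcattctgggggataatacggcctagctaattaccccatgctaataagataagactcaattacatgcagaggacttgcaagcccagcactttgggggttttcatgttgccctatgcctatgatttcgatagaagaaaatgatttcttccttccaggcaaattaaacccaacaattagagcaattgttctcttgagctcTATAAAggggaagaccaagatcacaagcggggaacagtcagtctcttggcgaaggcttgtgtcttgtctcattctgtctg
Krtap8-1: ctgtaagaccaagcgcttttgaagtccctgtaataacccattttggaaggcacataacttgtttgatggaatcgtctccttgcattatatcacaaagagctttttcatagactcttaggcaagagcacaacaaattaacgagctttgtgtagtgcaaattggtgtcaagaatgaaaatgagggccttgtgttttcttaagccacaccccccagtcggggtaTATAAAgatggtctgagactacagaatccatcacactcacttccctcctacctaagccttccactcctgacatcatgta
In these windows TATAAA begins at position -15 in Krt27, -40 in Krt71, -30 in Krt73 and -29 in Krtap8-1, counted from the annotated start.

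Promoters of genes high in the 3 high-hair libraries held this motif more often than promoters at large, as did those of genes low in them. TATAAA on either strand was present in 97 of 268 promoters (36.2%) of genes with a gap of at least 1 on the high-hair side, and in 906 of 10969 promoters (8.26%) of all measured genes with an entry. In Krtap promoters it was present in 35 of 43 (81.4%). These 43 are all among the 268, so this 1 family adds to the high-hair share. Restricted to bases -40 to -21 of the gene's strand, the shares were 23.9%, 2.03% and 58.1%. The motif was also above the share of all genes on the opposite side: of 46 promoters of genes with a gap of at least 1 on the low-hair side, 12 (26.1%) held it on either strand, and 8.70% held it in the narrower window. Both strands were also searched for CTTTGAA and CTTTGTT, forms of the site bound by TCF and LEF factors, and these were in 9.70% and 8.21% of the high-hair promoters against 3.76% and 3.93% of all. TTTATGG, a site type of homeobox factors, was in 5.97% against 1.88%. CCAAT, the general CCAAT box, was in 40.7% against 38.0%. In the 46 low-hair promoters CTTTGAA and CTTTGTT were in 4.35% each, TTTATGG in 0% and CCAAT in 37.0%. Genes of 1 cluster arose by duplication and share sequence, so their promoters are not independent. A match shows the letters only and not a bound site. Promoters on chromosome 18 were not used here.

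Inner root sheath transcripts set the scale of the difference. Krt71, the main type II keratin of the inner root sheath (minus strand of chromosome 15, 101733949 to 101743109, mm10), reached 3165, 3229 and 3023 CPM on the high-hair side and 49.1, 2.06 and 48.3 CPM on the low-hair side. Its partner Krt27, a type I keratin of the same layers (minus strand of chromosome 11, 99345565 to 99351104), was at 1448, 1584 and 1632 CPM against 24.8, 1.43 and 24.4. Krt73, restricted to the cuticle of the inner root sheath (minus strand of chromosome 15, 101793308 to 101802346), was at 352, 471 and 359 CPM against 12.5, 0.315 and 5.33. In each of these the high-hair libraries lay close together, whereas among the low-hair libraries ATR mD/mD 1 was far below ATR WT 1 and ATR mD/mD 2. Krt85, an early keratin of the hair shaft, was at 123, 105 and 175 CPM against 2.79, 0.200 and 1.96. These 4 genes ranked the libraries, so their gaps of 5.94, 5.87, 4.81 and 5.23 are a description of the ranking.

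Other genes of the inner root sheath followed the 4 ranking keratins. Tchh encodes trichohyalin, which hardens the inner root sheath and the medulla of the shaft. It was at 2648, 3586 and 2778 CPM in the high-hair and 35.6, 5.15 and 49.4 CPM in the low-hair libraries, a gap of 5.74 log2 units, or 53.5-fold. Padi3, an enzyme that converts arginines of trichohyalin to citrulline, was at 129, 155 and 179 CPM against 2.51, 0.458 and 2.13. Krt72, another inner root sheath keratin, was at 214, 378 and 264 CPM against 2.62, 0.200 and 2.97. All 13 measured genes of this list had a gap of at least 1 on the high-hair side, where 2.48% of all 14484 genes did. The median difference of the list was 7.15 log2 units, beside 0.03 over all genes. Since these genes were high in the libraries that such genes picked, nothing is read from that share.

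**Figure D1:**
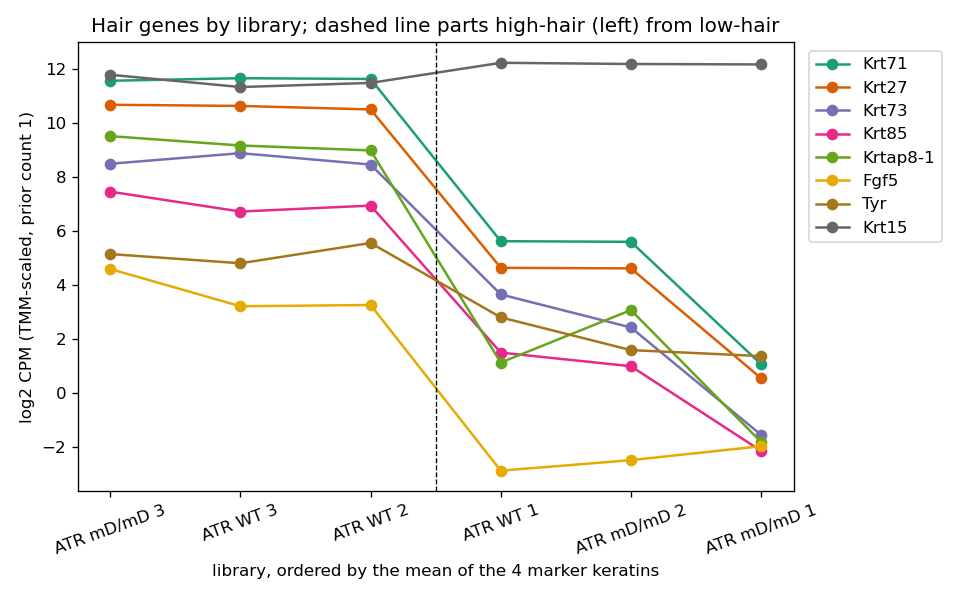
Level of 8 genes (vertical axis, log2 CPM) in each of the 6 libraries, ordered along the horizontal axis by the mean of the 4 ranking keratins, with a dashed line between high-hair and low-hair libraries. The 4 ranking keratins and Krtap8-1 are level across the 3 high-hair libraries, far lower right of the line and lowest in ATR mD/mD 1, whereas the bulge keratin Krt15 is higher in each low-hair library.

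Hair shaft keratins and their associated proteins were among the genes with the widest gaps. Krt33b, a type I keratin of the shaft cortex, had 8727, 9753 and 9933 counts in the high-hair and 19, 4 and 86 counts in the low-hair libraries, a gap of 6.50. Krt31, of the same type, was at 173, 163 and 210.4 CPM against 1.57, 0.515 and 2.18. The type II partner Krt86 was at 187, 221 and 247 CPM against 0.827, 0.114 and 3.35. All 15 measured shaft keratins, Krt85 among them, had a gap of at least 1, where 2.48% of all genes did. As with the inner root sheath list, nothing is read from that share. Their summed level was 1718, 1839 and 2159.8 CPM in the high-hair and 36.8, 19.8 and 42.4 CPM in the low-hair libraries, with no overlap for any member.

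Keratin-associated proteins fill the space between keratin filaments of the shaft. Krtap8-1, a glycine- and tyrosine-rich member (minus strand of chromosome 16, 89487379 to 89487952), had 21979, 28005 and 25484 counts in the high-hair and 78, 9 and 329 counts in the low-hair libraries. Krtap7-1 had 15552, 18513 and 18678 against 51, 3 and 200 counts, and Krtap11-1 had 10211, 11791 and 9748 against 60, 9 and 153. In all 3 genes the low-hair order was ATR mD/mD 2, then ATR WT 1, then ATR mD/mD 1. All 48 measured Krtap genes had a gap of at least 1, where 2.48% of all 14484 genes did. Some may count as measured only through their level in the high-hair libraries, and they are expressed with the ranking keratins. Nothing is therefore read from that share. Across the 3 low-hair libraries 4, 19 and 1 of the 48 had no count at all, while none was at 0 in a high-hair library. One member kept a higher level on the low-hair side. Krtap3-2 was at 84.8, 100.2 and 119 CPM in the high-hair and 8.33, 19.3 and 18.5 CPM in the low-hair libraries, a gap of 2.13. Krtap3-1, of the same subfamily, was at 159, 189 and 173 CPM against 0.938, 0.0286 and 2.54, a gap of 5.95. Krtap genes have near-identical relatives, so the division of reads among them is uncertain.

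The clusters that hold these genes were not high throughout. Together 4 stretches of the genome with at least 4 keratin or Krtap genes (mm10, GENCODE M21) contained 90 of the 355 positioned genes with a gap of at least 1, which is 25.4%, against 0.758% of all positioned genes. The stretches were drawn around keratin and Krtap genes and hold the ranking keratins Krt27, Krt71 and Krt73, so nothing is read from these shares. On chromosome 16 (88610705 to 89571183) all 25 measured genes had such a gap, and on chromosome 7 (142174535 to 142304594) all 5 did. On chromosome 11 (99232761 to 100269871) 46 of 55 did. The 9 that did not were Krt222, Krt24, Krt10, Krt20, Krt23, Krt15, Krt19, Krt14 and Krt17, among them Krt10 of the suprabasal epidermis, Krt14 of basal cells and Krt15 of the follicle bulge. On chromosome 15 (101347444 to 102032027) 14 of 24 did, and the epidermal keratins Krt1, Krt2 and Krt5 were among the 10 that did not.

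**Figure D2:**
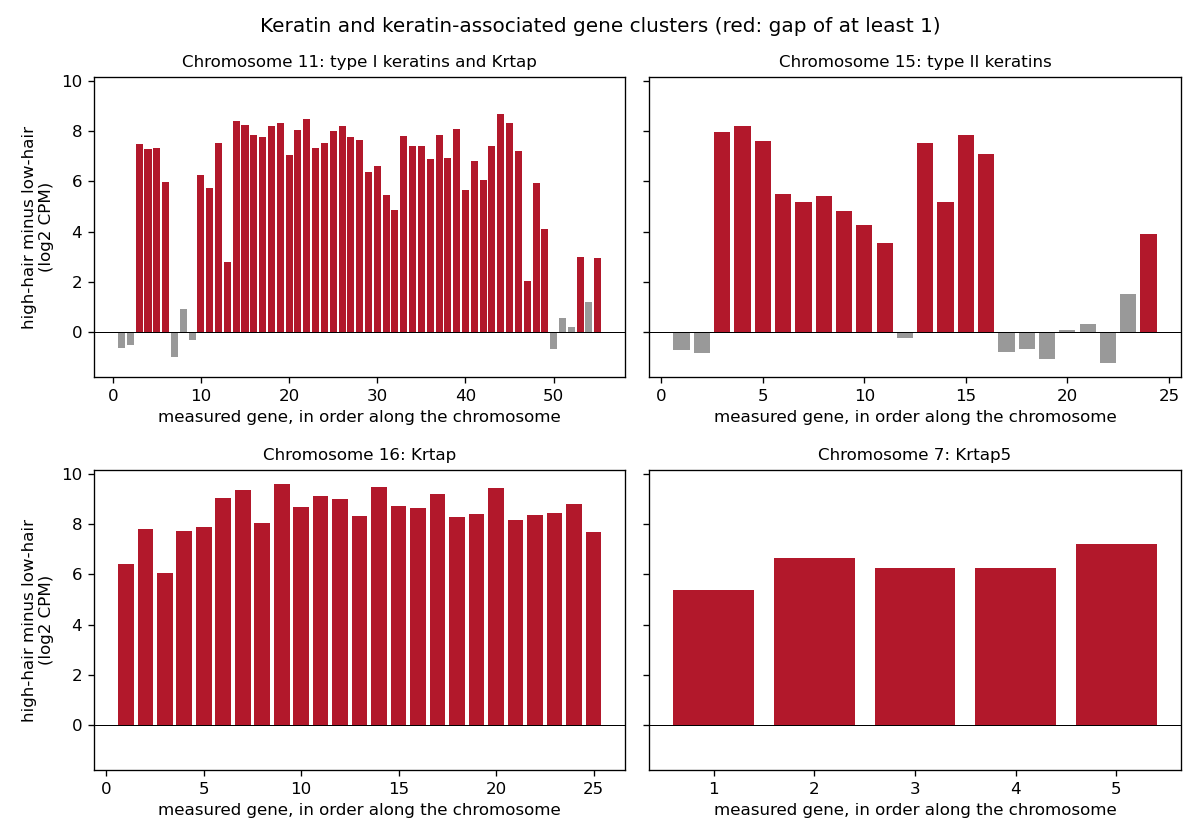
Difference between the mean log2 CPM of the high-hair and of the low-hair libraries (vertical axis) for each measured gene of 4 keratin and Krtap clusters, in order along the chromosome (horizontal axis). Red bars mark a gap of at least 1, which covers 25 of 25 genes on chromosome 16 and 46 of 55 on chromosome 11, while grey bars at both sides of 0 interrupt the clusters on chromosomes 11 and 15.

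Other structural proteins of the hair had gaps of similar size. Of 19 desmosome and shaft structure genes 9 had a gap of at least 1 on the high-hair side, where 2.48% of all genes did, and 8 overlapped. As with the lists above, nothing is read from that share. Dsg1a, a desmoglein of the epidermis, was lower in every high-hair library. Crnn (cornulin, a fused S100-type protein related to trichohyalin) was at 133, 166 and 139 CPM against 1.57, 0.114 and 1.96. S100a3, a cysteine-rich calcium-binding protein of the hair cuticle, was at 327, 312 and 468 CPM against 10.7, 1.14 and 6.93. Gprc5d, an orphan receptor of hard keratin-forming cells, was at 91.3, 109 and 125 CPM against 0.579, 0.0858 and 1.85. Genes outside the lists joined them. Gjb2, the gap junction protein connexin 26, was at 353, 436 and 575 CPM against 14.2, 6.32 and 11.8. Prr9, a proline-rich protein gene of chromosome 3, was at 835, 1288 and 805 CPM against 18.1, 3.97 and 17.3. Ggt1, a gamma-glutamyltransferase that cleaves glutathione, was at 19.4, 17.6 and 43.1 CPM against 0.358, 0.0572 and 0.432. In these 6 genes, too, ATR mD/mD 1 was the lowest library.

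Companion layer keratins were high in the same libraries, though less evenly. Krt75, the keratin of the companion layer between the outer and inner root sheaths, was at 242, 319 and 287 CPM against 14.4, 6.23 and 11.2. Krt6a, a keratin of the companion layer and of stressed epidermis, was at 218, 717 and 546 CPM against 37.5, 32.2 and 44.4. Krt16 was at 47.9, 245 and 153 CPM against 20.9, 15.9 and 10.97. ATR WT 2 was the lowest high-hair library for Krt6a and Krt16. Krt15 went the other way, with 2861, 2573 and 3525 CPM in the high-hair and 4796, 4597 and 4650.4 CPM in the low-hair libraries.

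Transcription factors of the hair matrix were higher in the high-hair libraries for 11 of 17 genes, of which 9 had a gap of at least 1. Without a minimum gap, 19.6% of all genes were higher in every high-hair library and 17.1% were higher in every low-hair library. Hoxc13, which switches on hair keratin genes (plus strand of chromosome 15, 102921103 to 102928814), was at 58.1, 67.2 and 64.7 CPM against 8.33, 5.63 and 7.29. Foxn1, the factor missing in nude mice, was at 26.4, 30.4 and 33.5 CPM against 8.05, 6.69 and 8.73. Msx2, a homeobox factor of matrix and shaft, was at 52.1, 49.2 and 71.6 CPM against 9.21, 4.66 and 7.52. Its relative Dlx2 was at 12.2, 7.35 and 17.8 CPM against 0.965, 0.143 and 0.355. The sides did not overlap for any of these 4 factors, and ATR mD/mD 1 was again the lowest library. Gata3, a factor of the inner root sheath that epidermis and immune cells also express, was lower in the high-hair libraries, with 237, 201 and 255 CPM against 336, 336 and 300.4.

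Signals between matrix and papilla differed in both directions. Shh, the hedgehog ligand of the matrix (minus strand of chromosome 5, 28456815 to 28467256), was at 11.02, 3.07 and 11.8 CPM in the high-hair and 2.18, 0.458 and 0.609 CPM in the low-hair libraries. ATR WT 3 was nearly as low as ATR WT 1, a gap of 0.49 only. The hedgehog effector Gli1 was at 52.1, 30.8 and 52.4 CPM against 18.01, 15.1 and 18.2, Gli2 at 27.2, 32.5 and 27.4 against 10.5, 11.4 and 12.8. The hedgehog-binding inhibitor Hhip was at 8.14, 5.89 and 9.93 CPM against 2.62, 2.63 and 2.44. ATR WT 3 was the lowest high-hair library for Shh, Gli1 and Hhip. Of 14 pathway genes 9 were higher in every high-hair library and 3 overlapped. The co-receptor Cdon and the ligand exporter Disp1 were lower in every high-hair library, Disp1 by a gap of only 0.01. Over all genes the shares were 19.6% higher and 17.1% lower.

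Wnt genes lay on both sides. Of 44 measured, 13 were higher in every high-hair library, 11 were lower in every one and 20 overlapped. Of all genes, 19.6% were higher and 17.1% lower in the same sense. Lef1, the nuclear partner of beta-catenin in the matrix, was at 32.8, 21.00 and 45.7 CPM against 7.67, 7.38 and 7.24. The ligand Wnt11 was at 27.4, 24.7 and 30.9 CPM against 11.7, 5.52 and 9.37. The receptor Fzd5 was at 35.3, 47.1 and 47.1 CPM against 11.7, 11.5 and 12.2. Wif1, a secreted Wnt inhibitor, was at 28.7, 18.2 and 42.6 CPM against 7.25, 7.61 and 7.69. These 4 genes were low and even across the low-hair libraries except Wnt11, which was lowest in ATR mD/mD 1. Sfrp5, another secreted Wnt inhibitor, lay on the other side with 12.97, 9.62 and 12.4 CPM against 27.9, 43.4 and 27.2.

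Growth factor genes included the gene with the widest gap of any signal examined here. Fgf5, a ligand whose loss lengthens hair because it helps to end the growth phase (plus strand of chromosome 5, 98254184 to 98277030), had 414, 450 and 839 counts in the high-hair and 4, 8 and 6 counts in the low-hair libraries, a gap of 5.18. Its level in ATR mD/mD 3 was above that of both other high-hair libraries, at 9.52, 9.21 and 24.02 CPM across the 3. A pair of EGF receptor ligands lay the other way. Btc, betacellulin, was at 19.2, 20.9 and 18.3 CPM against 40.8, 41.2 and 48.8. Egf was at 5.80, 3.97 and 3.72 CPM against 11.6, 12.9 and 11.3. Of 29 genes in this list 7 were higher in every high-hair library and 9 were lower in every one. Among BMP and TGF-beta genes 9 of 27 were higher in every high-hair library and 2 were lower, and in the Notch list 4 and 4 of 17. The shares over all genes were 19.6% higher and 17.1% lower. Heyl, a target of Notch, was at 22.7, 20.02 and 20.6 CPM against 8.66, 5.20 and 7.01. Bambi, a decoy receptor that dampens BMP signals, was at 41.2, 43.8 and 47.7 CPM against 11.1, 7.46 and 11.7. Bmp4 and Fgf18, signals linked to the resting follicle, overlapped between the sides. Bmp4 was at 33.8, 28.7 and 28.6 CPM against 32.4, 32.4 and 31.1. Fgf18 was at 3.68, 2.21 and 2.46 CPM against 2.67, 2.83 and 5.002.

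Dermal papilla and stem cell genes differed by less than the shaft genes. Corin, a protease of the dermal papilla (minus strand of chromosome 5, 72300025 to 72504473), was at 10.9, 12.6 and 27.4 CPM against 1.60, 1.32 and 1.93. The matrix proteoglycan Vcan was at 51.8, 49.3 and 42.3 CPM against 20.1, 20.7 and 23.6. Of 23 papilla genes 10 were higher in every high-hair library, 3 of them by a gap of at least 1. Rspo3, Crabp1 and Pappa2 were lower in every high-hair library, and 10 genes overlapped. Of all genes 19.6% were higher, 2.48% by such a gap, and 17.1% were lower. The highest level of Corin was in ATR mD/mD 3, as for Fgf5 and Lef1. Lgr5, a receptor of cycling follicle stem cells, was at 36.5, 59.2 and 48.8 CPM against 19.2, 16.2 and 18.3. Lhx2, a stem cell factor, was at 66.9, 70.98 and 84.8 CPM against 41.3, 45.4 and 39.3. Cd34, a marker of the bulge, overlapped with 332, 279 and 219 CPM against 345, 312 and 372. Of 18 stem cell and bulge genes 9 were higher in every high-hair library, where 19.6% of all genes were, and 7 overlapped. None of the 18 stem cell and bulge genes had a gap of at least 1. The labels name no hair cycle stage, and the bulge markers of the resting follicle were not jointly higher in the low-hair libraries. Only 2 of the 18, Krt15 and Nfatc1, were higher in every low-hair library, where 17.1% of all genes were. The low-hair libraries are for that reason called by their low hair level and not by a stage.

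Pigment genes were higher in the high-hair libraries. Tyrp1, a melanosomal enzyme, was at 119.8, 80.3 and 117 CPM against 9.71, 9.75 and 13.4. Tyr, which starts melanin synthesis, was at 46.9, 27.8 and 35.3 CPM against 6.92, 2.55 and 2.97. Trpm1, a melanocyte channel, was at 34.1, 15.2 and 32.1 CPM against 3.25, 2.49 and 2.82, with ATR WT 3 the lowest high-hair library. Of 17 melanin and melanosome genes 15 were higher in every high-hair library, 12 of them by a gap of at least 1. The respective shares over all genes were 19.6% and 2.48%. Of 14 regulators and receptors 6 were higher in every high-hair library and 8 overlapped, and only 2 had a gap of at least 1. The endothelin receptor Ednrb was at 70.2, 67.5 and 111 CPM against 14.6, 18.1 and 29.4. The melanocortin receptor Mc1r was at 14.4, 4.63 and 14.5 CPM against 2.21, 0.915 and 1.17. ATR WT 3 was the lowest high-hair library for these 2 as well as for Tyrp1, Tyr and Trpm1. Melanocytes of the follicle and of a nevus cannot be told apart in bulk RNA. In the same way fewer cells of a type and less RNA per cell cannot be told apart in any result here.

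Genes of dividing cells were also higher. Mki67, a marker of proliferation, was at 129.6, 118 and 235 CPM against 57.2, 56.5 and 43.3. Bub1, a spindle checkpoint kinase, was at 10.1, 8.76 and 16.9 CPM against 3.17, 3.06 and 2.64. Ccnb1, the mitotic cyclin B1, was at 24.7, 23.2 and 40.7 CPM against 9.90, 9.52 and 9.93. ATR mD/mD 3 was the highest library for all 3, and the other high-hair libraries, both ATR WT, lay between it and the low-hair libraries. Of 28 mitosis genes 26 were higher in every high-hair library, 5 by a gap of at least 1. DNA replication genes differed less, with 11 of 34 higher in every high-hair library, 0 by a gap of at least 1, and a median difference of 0.36. The mean of that list was 4.41, 4.21 and 4.94 log2 CPM against 4.18, 4.05 and 4.08. ATR mD/mD 3 stood highest there, while ATR WT 3 lay close to ATR WT 1. In the ATR pathway list 7 of 23 genes were higher in every high-hair library, none by a gap of at least 1. The shares over all genes were 19.6% and 2.48%. Atr itself was at 24.5, 24.2 and 24.8 CPM against 17.6, 20.8 and 22.2, a gap of 0.12. Braf was at 34.8, 41.5 and 37.5 CPM against 20.6, 22.8 and 27.02, a gap of 0.37.

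Genes for cysteine supply and related metabolism accompanied the cysteine-rich shaft proteins. The cystine transporter Slc7a11 was at 19.4, 14.3 and 20.4 CPM against 4.96, 8.81 and 8.89. Cth, which makes cysteine, was at 9.04, 8.43 and 7.50 CPM against 3.36, 2.60 and 2.69. Slc39a8, a zinc transporter, was at 63.9, 73.5 and 70.6 CPM against 15.5, 21.6 and 21.05. The sides did not overlap for these 3 transport and synthesis genes. Gpx2, a glutathione peroxidase, was at 10.6, 30.4 and 20.01 CPM against 3.01, 1.37 and 0.355. Of 15 genes in this list 11 were higher in every high-hair library, and Sms, a spermine synthase, was lower in every one. The shares over all genes were 19.6% higher and 17.1% lower.

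**Figure D3:**
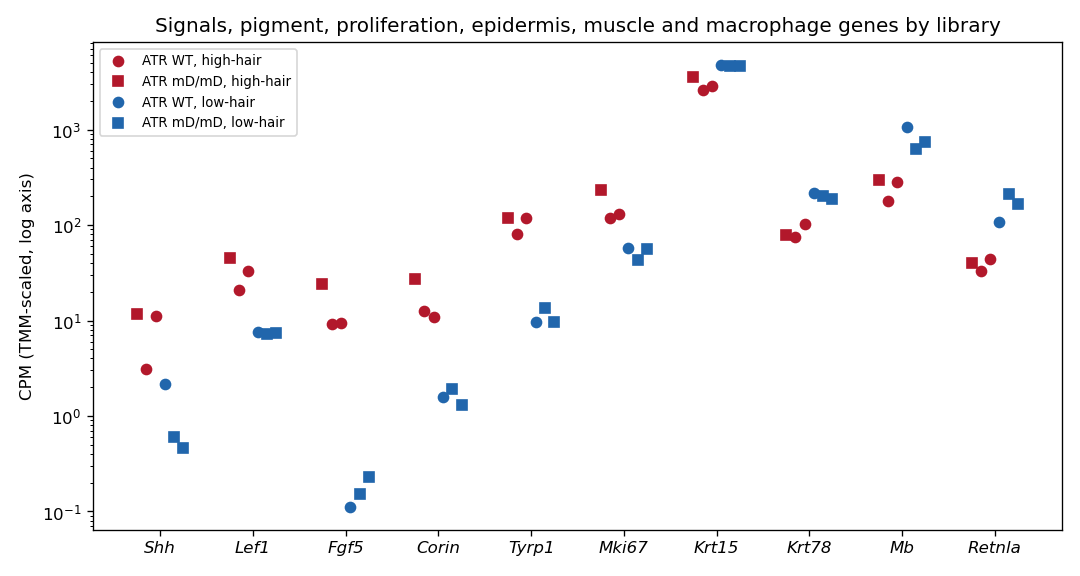
CPM (vertical axis, log scale) of 10 genes in each library, with high-hair libraries in red, low-hair in blue, ATR WT as circles and ATR mD/mD as squares. Shh, Lef1, Fgf5, Corin, Tyrp1 and Mki67 are higher in red, whereas Krt15, Krt78, Mb and Retnla are higher in blue.

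Skeletal muscle transcripts were lower in the high-hair libraries. Skin samples can hold the thin muscle sheet under the dermis. Mb, the oxygen carrier myoglobin (minus strand of chromosome 15, 77015487 to 77050670), was at 285, 179 and 299.7 CPM in the high-hair and 1061, 734 and 633 CPM in the low-hair libraries. Ttn, the giant sarcomere protein titin, was at 696, 581 and 354 CPM against 1644, 1311 and 1454. Tnnc2, fast troponin C, was at 1448, 730.1 and 1073 CPM against 5225, 2693 and 2699.6. Of 22 muscle genes 21 were lower in every high-hair library, 1 by a gap of at least 1, where 17.1% and 0.414% of all genes were. The list's summed level was 21903, 13709 and 12776 CPM against 58959, 37578 and 38013. ATR WT 1 was the highest library for this sum and ATR WT 2 the highest of the high-hair side, and no muscle gene of the list was at 0 in any library. The part of the muscle share in the other differences was not tested. Over all genes 60 (0.414%) were lower in the high-hair libraries by a gap of at least 1, and the genes with the widest gaps included another muscle gene. Mylk4, a myosin light chain kinase, was at 62.6, 55.1 and 31.03 CPM against 176, 161 and 182. Leaving out ATR WT 2 raised the count of 60 to 262, and leaving out ATR mD/mD 1 raised it to 121. The count of 359 higher genes lay between 380 and 432 with 1 library left out. A gap cannot shrink when a library is left out, so these counts could only stay or rise.

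Epidermal differentiation genes were on balance lower as well. Of 29 epidermal genes 17 were lower in every high-hair library, 5 were higher and 7 overlapped, with a median difference of -0.68. Over all genes 17.1% were lower and 19.6% higher. Flg2, a filaggrin-like protein of the cornified layer, was at 360.2, 355 and 363 CPM against 659, 675 and 887. Krt78, a suprabasal keratin, was at 103, 75.6 and 78.1 CPM against 217, 187 and 199. Aloxe3, a lipoxygenase of the skin barrier, was at 17.5, 16.4 and 14.4 CPM against 29.1, 32.03 and 36.2. Sprr1b, a cornified envelope protein of stressed epithelium, lay the other way at 3.70, 8.99 and 10.5 CPM against 0.0827, 0.257 and 0.102. Casp14, a protease of cornification, was at 49.9, 58.7 and 55.8 CPM against 28.1, 21.3 and 28.8.

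Most circadian clock genes were lower in the high-hair libraries. Tef, a PAR-domain factor and output of the clock, was at 247, 236 and 178 CPM against 379, 409 and 424. Hlf, its relative, was at 49.8, 47.3 and 31.2 CPM against 79.2, 75.8 and 92.9. For both genes ATR mD/mD 3 was the lowest library. Ciart, a repressor of the clock, was at 10.6, 11.3 and 10.2 CPM against 26.9, 18.4 and 22.4. Nfil3, a repressor that opposes the PAR-domain factors, was higher in every high-hair library, at 28.2, 41.02 and 40.8 CPM against 13.2, 11.4 and 10.2. Arntl, an activator of the clock, was also higher, at 16.3, 19.9 and 17.4 CPM against 13.2, 14.9 and 13.03, a gap of 0.13. Of 18 clock genes 12 were lower in every high-hair library, none by a gap of at least 1. Over all genes the share of lower ones was 17.1%. No source here gives the time of day of sampling.

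Fat, vessel and immune markers seldom differed by a gap of at least 1. Of 22 adipocyte genes 10 were lower in every high-hair library, none was higher in every one and 12 overlapped. Over all genes the shares were 17.1% lower and 19.6% higher, and the counts below are to be set beside them too. The fatty acid synthase gene Fasn was at 542, 542 and 345 CPM against 678, 813 and 734, while Adipoq (adiponectin) overlapped at 373, 265 and 174 against 324, 467 and 398. Of 17 endothelial genes 10 were lower in every high-hair library, none by a gap of at least 1, while 1 was higher and 6 overlapped. Among T and NK cell genes 5 of 15 were lower in every high-hair library, none was higher in every one and 10 overlapped. The T cell receptor component Cd3e, 1 of the lower genes, was at 10.2, 10.2 and 5.47 CPM against 17.1, 17.2 and 13.2. Retnla, a secreted product of alternatively activated macrophages and of fat, was the exception in size, at 43.7, 32.99 and 40.4 CPM against 108, 164 and 210.1, a gap of 1.30. Of 16 macrophage and monocyte genes 3 were higher in every high-hair library, 2, Retnla among them, were lower and 11 overlapped, beside 19.6% and 17.1% of all genes higher and lower. The higher ones were the complement genes C1qa, C1qb and C1qc, with C1qb at 85.9, 85.3 and 73.1 CPM against 62.01, 57.8 and 46.8. The level of immune lists followed single libraries more than sides: the mean of T and NK cell genes was 2.32, 2.40 and 1.73 log2 CPM in the high-hair and 2.39, 2.65 and 2.05 in the low-hair libraries.

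The remaining lists had few or no genes with a gap of at least 1. Their counts without a minimum gap stand beside shares of 19.6% higher and 17.1% lower over all genes, and counts near these are not read as results. Of 27 fibroblast and matrix genes 4 were higher in every high-hair library and 2 were lower. Col12a1, a collagen of fibril surfaces, was at 55.6, 99.9 and 72.4 CPM against 15.2, 21.2 and 26.2. Of 18 sebaceous gland genes 2 were higher and 4 lower in every high-hair library. Among smooth muscle and pericyte genes the numbers were 1 and 6 of 14, among Schwann cell and nerve genes 2 and 2 of 14, and among mast cell genes 1 and 1 of 10. For dendritic cell and MHC class II genes they were 0 and 1 of 13, and for B cell and erythroid genes 0 and 1 of 2. Oxidative phosphorylation genes were lower in every high-hair library for 13 of 25. The muscle isoforms Cox7a1 and Cox8b had the widest gaps of that list. Cox8b was at 45.9, 22.6 and 43.7 CPM against 143, 71.4 and 68.1. Of 20 immediate early and heat shock genes 4 were higher, and of 14 cell cycle inhibitors 4 were higher and 1 lower. Cytoplasmic ribosomal protein genes overlapped in all 22 cases.

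**Figure D4:**
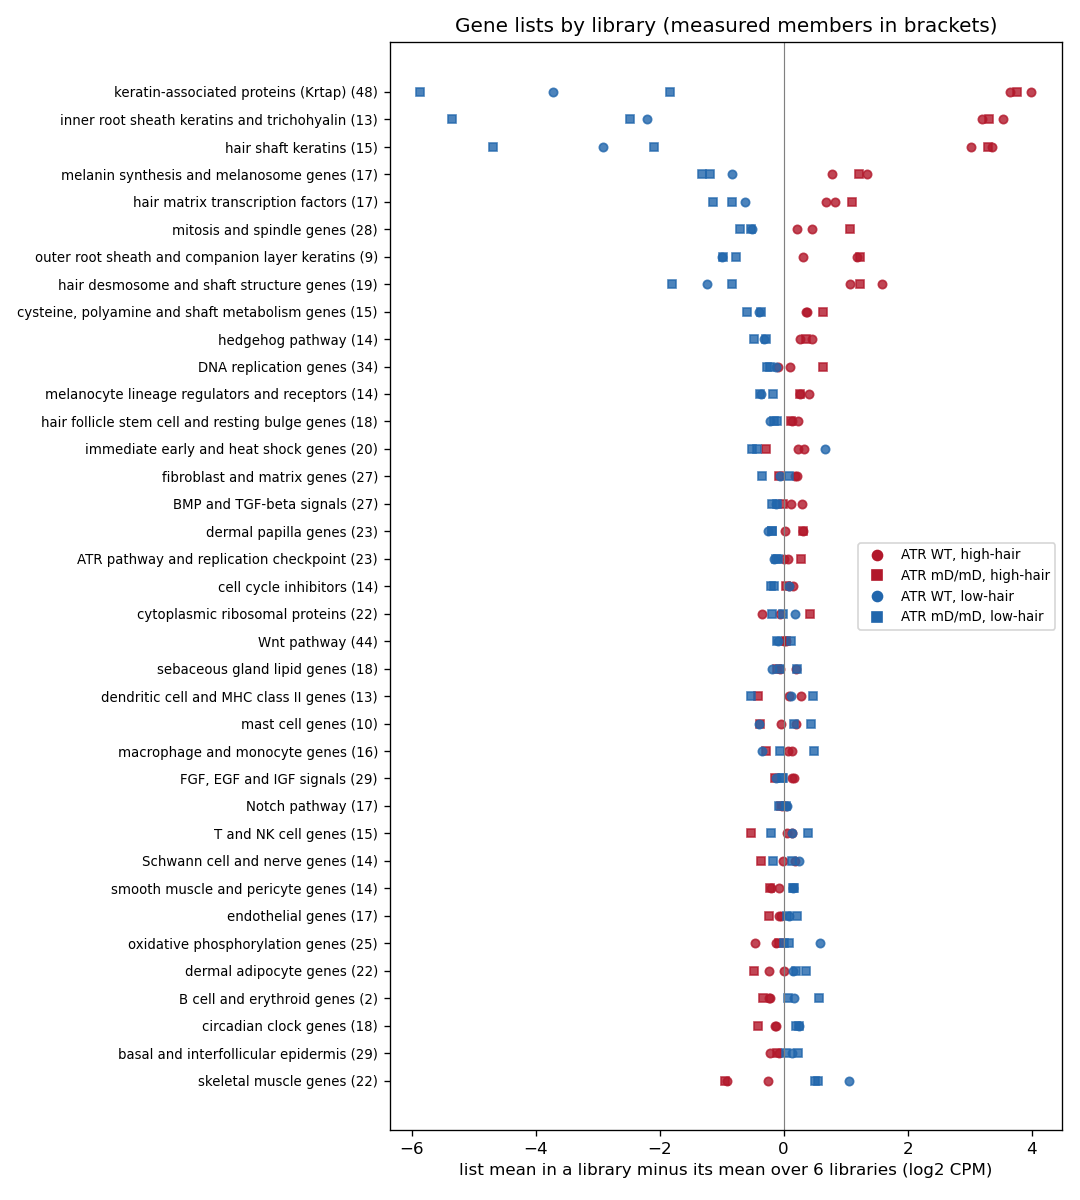
For each of 37 gene lists, the mean log2 CPM of its measured members in a library minus that mean over the 6 libraries (horizontal axis), ordered by the median difference between sides, with high-hair libraries in red, low-hair in blue, ATR WT as circles and ATR mD/mD as squares. Krtap, inner root sheath and shaft lists have all red points right of 0 and all blue points left of it, skeletal muscle is the list farthest to the other side, and macrophage, T cell, dendritic cell and mast cell lists mix the colours.

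Within each side the libraries also differed. Over the 359 genes higher by a gap of at least 1, the median range among the 3 high-hair libraries was 0.62 log2 units, and among the 3 low-hair libraries 0.87. ATR mD/mD 1 was the lowest low-hair library for 217 of the 359, and the median level of these genes was 0.06, -0.43 and 0.53 log2 CPM across the low-hair libraries against 4.11, 4.27 and 4.39 across the high-hair ones. These genes took 2.77%, 3.35% and 3.22% of all gene counts in the high-hair libraries and 0.221%, 0.198% and 0.231% in the low-hair libraries. Among genes of moderate level, Cyp2e1, a cytochrome P450 gene of liver and fat, ranged widest within the high-hair side, with 127, 123 and 8.99 CPM, ATR mD/mD 3 being the low one. Xirp1, a muscle protein gene, was at 18.2, 215 and 67.5 CPM and Jchain, the joining chain of secreted antibodies, at 9.41, 70.2 and 20.5 in the same libraries. Among the low-hair libraries H2-Eb1, an MHC class II chain, was at 353, 370.1 and 9.32 CPM, with ATR mD/mD 2 alone low, and at 278, 459 and 198 CPM in the high-hair libraries. Sex-linked transcripts did not follow the sides over all 6 libraries, although within ATR WT they did. Xist, which silences an X chromosome in female cells, had 23005, 29207 and 23 counts on the high-hair side and 37, 18050 and 40 counts on the low-hair side.

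The genotype comparison, which the labels define, found few genes. The edgeR quasi-likelihood test with Benjamini-Hochberg adjustment (threshold 0.05) called 7 of 14484 genes (0.0483%) lower in ATR mD/mD and 0 higher, with 240 genes at an unadjusted p under 0.05. With the hair side as a term of the same model, 10 genes (0.069%) were lower and 0 were higher, and all 7 earlier ones were among them, with 790 genes at an unadjusted p under 0.05. DESeq2, without the term, called 39 genes, 6 of them higher. The edgeR count was 4 when ATR WT 2, ATR WT 3 or ATR mD/mD 1 was left out. Atr counts cover the whole gene and so do not check the deletion of a part of it; its level in ATR mD/mD 3 was as high as in ATR WT 2 and ATR WT 3. The side came from the same counts, so this second fit is a description of how the calls move. The 3 added genes were Alpi, an alkaline phosphatase gene, Trim34a, a tripartite motif gene, and Skint5, of an epidermal membrane protein family. Alpi was at 18.97, 10.7 and 0.0572 CPM in the high-hair and 2.62, 0.0286 and 0.0254 CPM in the low-hair libraries. ATR WT 2 and ATR WT 3 thus lay above ATR WT 1, while ATR mD/mD libraries held only 1, 1 and 2 counts. Among ATR WT libraries hair side and sex coincide by the Xist counts above, so the 2 cannot be told apart for Alpi. Its adjusted p was 0.134 without the term and 0.0101 with it (edgeR). Skint5 was at 11.2, 10.8 and 1.20 CPM against 17.8, 3.003 and 3.55, and its log2 fold change of ATR mD/mD against ATR WT went from -2.36 (SE 0.446, adjusted p = 0.813) to -2.78 (SE 0.242, adjusted p = 0.0287) with the term in edgeR. Trim34a had -2.12 (SE 0.229, adjusted p = 0.0788) without and -2.22 (SE 0.211, adjusted p = 0.0442) with the term (edgeR). Both belong to families of close relatives, among which reads can be divided wrongly. None of these 3 genes parted by hair side.

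No hair gene of the lists was among the genotype calls. Without the side term, the median log2 fold change of ATR mD/mD against ATR WT was -1.08 over the 48 Krtap genes, -0.71 over the shaft keratins and -1.07 over the inner root sheath list, beside 0.01 over all genes. ATR WT supplies 2 of the 3 high-hair libraries, so genotype and hair side are partly mixed in these medians. Values of these lists with the side as a term are not given, since hair genes set the side. Melanin genes had a median of -0.58 and mitosis genes one of 0.06. The estimate for Krt71 in edgeR was -1.07 (SE 2.20, adjusted p = 1.000) on the log2 scale, and at that standard error a difference of several fold was not detectable with 3 libraries of each genotype.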

How the data were processed

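RNA of 6 mouse skin samples was sequenced from TruSeq RNA v2 libraries of oligo dT-selected messenger RNA, which are unstranded. FastQC, TopHat2 2.0.12, edgeR and the build mm10 are named in the submitters' processing notes, while no source here states the read counter, annotation or low-count filter. The authors deposited whole-number read counts per gene with 1 column per library, per the file headers. The deposited table also holds the authors' log2 fold changes with p-values, which were not used here. Of 14486 rows, 2 name no gene (4.93% to 5.72% of counts) and were left out. The other 14484 genes held 34723600 to 46847751 counts per library. No pair of libraries held the same counts (chi-square per degree of freedom 55.3 or above).

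Counts were TMM-scaled (factors 0.923 to 1.04) in edgeR 4.0.16 (R 4.3.3). Genotypes were compared with edgeR's quasi-likelihood test, tested on simulated data first. Its SE is the absolute log2 fold change over the square root of F. DESeq2 1.42.0 and limma-voom (limma 3.58.1) were alternatives. Positions came from GENCODE M21 (14385 genes with 1 position). Without strand, antisense partners cannot be told apart.

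The ranking, the 36 gene lists and the tests were chosen with earlier results of these data known. Named genes were the 4 ranking keratins, the 15 widest gaps in each direction (mean of at least 1 log2 CPM; no keratin, Gm, Rik or sex-linked genes), up to 5 members per list plus those that parted against it, the 5 highest Krtap genes, the widest ranges within a side, genotype calls and 16 fixed genes; some of them are not reported here. Outside the rule, Xist, the genes named by cluster, and those of the closing observations except Gm1821 were picked with their values known.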

Additional observations from a re-analysis of the deposited data

How the results depend on the processing

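The number of genes parted by a gap of at least 1 was 359 higher and 60 lower in the high-hair libraries. It stayed within 1.5 times of these under 3 other scalings and prior counts of 0.25 and 5. Ranking by shaft keratins or by Krtap genes gave the same sides and therefore the same counts. With any gap it was 2836 and 2484, with a gap of at least 2 it was 199 and 1, and with at least 10 CPM in 3 libraries 214 and 33. With 1 library left out the counts ran from 380 to 432 higher and from 66 to 262 lower. Leaving a library out cannot shrink a gap, so a rise was fixed in direction. The genotype calls, 7 in all, ran from 4 (without ATR WT 2, ATR WT 3 or ATR mD/mD 1) to 10 (without ATR WT 1). DESeq2 called 39, and the remaining fits called 5 to 10. With the replicate block there were 6 calls, 5 of them among the 7. The labels do not say whether the replicate numbers pair the samples. Deviations of same-numbered libraries from their genotype means correlated at 0.64, -0.48 and 0.58. Over all pairings the sign was positive within a hair side and negative across sides, so these values cannot decide on pairing. List medians of the side difference moved by more than the spread within sides in 26 of 407 recomputed values, all with 1 library left out, and differences of named genes in 2, against 2847 that did not. Plain CPM shifted the median of all genes to 0.08 from 0.03 log2 units. With 3 libraries a side and no label for the hair level, age, body site and hair stage cannot be told apart from it.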

Other observations

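Several genes outside the lists parted by hair side. Acan, the cartilage proteoglycan aggrecan, was at 4.05, 3.99 and 14.4 CPM in the high-hair and 0.414, 0.315 and 0.609 CPM in the low-hair libraries. Npy, neuropeptide Y, was at 5.45, 4.58 and 6.90 CPM against 0.800, 0.601 and 0.762. Foxe1, a forkhead factor of the hair follicle, was at 4.74, 4.03 and 7.56 CPM against 0.193, 0 and 0.178. Prl2c5, a gene of the prolactin family best known from placenta, was at 20.1, 3.58 and 23.8 CPM against 0.0276, 0 and 0.0508, with ATR WT 3 well below both other high-hair libraries.

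On the low-hair side, Nnt, a mitochondrial transhydrogenase, was at 91.4, 78.4 and 85.6 CPM in the low-hair and 37.6, 31.1 and 34.2 CPM in the high-hair libraries. Mrgprg, a receptor of the Mas-related family, was at 2.87, 2.60 and 37.1 CPM against 0.368, 0.368 and 0.344, with ATR mD/mD 2 far above the rest. Inmt, a methyltransferase, was at 39.5, 18.1 and 33.8 CPM against 8.05, 3.75 and 6.56. The embryonic and cardiac troponin Tnnt2 was at 16.96, 16.6 and 24.1 CPM against 7.82, 5.14 and 7.96.

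Gm1821, a gene model of chromosome 14, was at 18.7, 17.7 and 127 CPM in the high-hair and 151, 134 and 127 CPM in the low-hair libraries, so that ATR WT 2 and ATR WT 3 stood below the other 4 libraries.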
